A study of Mus musculus with 14 samples.

Results

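Interferon gamma signaling was followed through 9 genes in bulk tumor RNA-seq. They are the ligand gene Ifng, the receptor chains Ifngr1 and Ifngr2, the kinases Jak1 and Jak2, the transcription factor genes Stat2, Irf9, and Irf1, and the feedback inhibitor gene Socs1. The genes were chosen by name and matched to the mouse Ensembl identifiers of the deposited tables, in which all 9 were found among 53801 genes. Each of the 9 had enough counts to be tested, among 16287 genes that did.

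CT26 cells, which derive from a BALB/c colon carcinoma, carried clonal barcodes and were injected under the skin of both flanks of female BALB/c mice 6 to 8 weeks old. The mice received 200 μg of control IgG (clone 2A3) or of anti-PD-1 (clone 1A12) from day 7, every 3 days for 5 doses, with harvest 3 days after the final injection. Of the 14 tumors, 5 had control IgG (4 mice), 5 were responders to anti-PD-1 (4 mice), and 4 did not respond to it (3 mice). Anti-PD-1 tumors had been classed by their size at the end of treatment, so that response is a label of tumor size. All tumors came from 1 cell line, and the left and right tumors of mice 14, 30, and 33 (14L and 14R, 30L and 30R, 33L and 33R) shared a host, as read from the tumor numbers.

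Interferon gamma is made mainly by activated T cells and NK cells. It binds a receptor of a ligand-binding chain (IFNGR1) and an accessory chain (IFNGR2), which carry the kinases JAK1 and JAK2. The activated kinases start a signal that acts through GAS elements in the promoters of genes such as Irf1. IRF1 then drives a further set of genes that includes those of antigen presentation, and SOCS1 binds the kinases and limits the signal. STAT2 and IRF9 act in a complex that binds ISRE elements and is best known from type I interferon, and the genes of both are themselves induced by interferons. Most cells have the receptor, tumor cells included, while few make the ligand.

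The promoter windows below are shown because they are the ones among the 9 genes that hold a GAS motif (TTCNNNGAA, which reads the same on both strands) or the core of an ISRE (GAAANNGAAA, searched on both strands). The windows are the 250 bases before a RefSeq start site in GRCm38.p6, the C57BL/6J reference, and are written 5′ to 3′ in the direction of the gene with the matched letters in capitals.
Ifng, chr10:118440796-118441045, plus strand: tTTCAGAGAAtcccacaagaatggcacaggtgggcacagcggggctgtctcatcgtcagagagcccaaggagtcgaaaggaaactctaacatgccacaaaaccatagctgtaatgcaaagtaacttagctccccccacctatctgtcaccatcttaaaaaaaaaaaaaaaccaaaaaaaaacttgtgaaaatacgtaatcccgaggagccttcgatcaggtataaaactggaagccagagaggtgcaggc
Irf1, chr11:53769764-53770013, plus strand: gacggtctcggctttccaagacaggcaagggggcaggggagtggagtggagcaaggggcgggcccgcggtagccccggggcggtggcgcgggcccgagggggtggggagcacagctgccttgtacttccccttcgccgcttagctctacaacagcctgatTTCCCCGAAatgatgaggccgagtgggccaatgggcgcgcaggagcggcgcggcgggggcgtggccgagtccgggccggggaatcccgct
Stat2, chr10:128270248-128270497, plus strand: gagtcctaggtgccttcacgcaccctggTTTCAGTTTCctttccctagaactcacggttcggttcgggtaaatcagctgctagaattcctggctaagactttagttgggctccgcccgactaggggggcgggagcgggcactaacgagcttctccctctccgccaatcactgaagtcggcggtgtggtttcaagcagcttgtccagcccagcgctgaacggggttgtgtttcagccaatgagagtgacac
Socs1, chr16:10785537-10785786, minus strand: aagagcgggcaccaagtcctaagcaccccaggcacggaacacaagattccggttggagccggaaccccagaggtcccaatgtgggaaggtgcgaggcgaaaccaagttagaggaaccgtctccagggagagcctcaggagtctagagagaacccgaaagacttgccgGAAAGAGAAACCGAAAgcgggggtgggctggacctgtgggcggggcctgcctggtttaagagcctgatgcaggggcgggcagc

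All 9 genes had an entry, with 11 windows between them, and 4 windows held a match. The Irf1 match, TTCCCCGAA, lay 90 to 82 bases before the start, and the Ifng match, TTCAGAGAA, 249 to 241 bases before it. Stat2 held the ISRE core on the minus strand, 222 to 213 bases before the start. Socs1 held 2 overlapping cores, GAAAGAGAAA and GAAACCGAAA, between 83 and 68 bases before the start. Among all 32851 windows of this length, 7.02% held the GAS letters and 2.98% the ISRE core, and a match describes the letters only. The windows of Ifngr1, Ifngr2, Jak1, Jak2, and Irf9 and the second window of Irf1 held neither motif.

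The totals of the expected counts ranged from 33237744 to 48481461 per tumor. At this depth Ifng rested on 10 to 114 counts per tumor and each other member on at least 516, so that counting error weighs most on Ifng. Non-responder tumor 33R stood apart, with the longest mean fragment of all (286.8 bases by the difference between gene length and effective length, against 267.7 to 281.4 bases in the others). Fragments were longer in every non-responder (276.5 to 286.8 bases) than in any responder (268.5 to 276.0 bases), and the part of this in the comparison of these groups was tested only through removal of the gene length trend. In 33R, Jak1 and Jak2, the members with the longest transcripts, were lowest of all 14 tumors and Ifngr2 was highest. Of the 5 colon epithelium markers tested, the keratins Krt8 and Krt18 reached 27.1 and 15.9 CPM, Cdh1 reached 10.7 CPM, Epcam 5.33 CPM, and the intestinal factor Cdx2 0.68 CPM. In bulk tumors, fewer cells of a type and less RNA per cell cannot be told apart. CPM below is the count of a gene relative to the TMM-scaled library total, and compares 1 gene between tumors. TPM corrects for gene length, and compares genes.

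Per length, the ligand transcript was the scarcest member and the receptor was abundant in all groups. In control IgG tumors Irf1 was at 46.8 ± 12.8 TPM (SD, n = 5), Ifngr1 at 37.6 ± 2.37 TPM, Jak1 at 33.2 ± 3.83 TPM, and Ifngr2 at 26.8 ± 4.86 TPM. They were followed by Stat2 at 26.4 ± 8.72 TPM, Irf9 at 25 ± 5.7 TPM, Jak2 at 18.7 ± 2.67 TPM, Socs1 at 7.57 ± 1.4 TPM, and Ifng at 0.582 ± 0.276 TPM. The ranges over tumors of each gene and the next in this order overlapped from Irf1 down to Jak2, and did not overlap between Jak2 and Socs1 or between Socs1 and Ifng. In responders the order began with Irf1 at 86.8 ± 25.2 TPM (SD, n = 5), whose range lay above that of Ifngr1 at 54.6 ± 2.61 TPM, and Stat2 at 52.1 ± 16.1 TPM came before Jak1 at 43.9 ± 3.5 TPM. Ifng was last in every group, at 2.42 ± 1.49 TPM in responders and 0.673 ± 0.25 TPM (SD, n = 4) in non-responders.

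The TPM of Ifngr1 exceeded that of Ifng many times over in every tumor, with a lower median multiple in responders. Its median was 71.1 in control IgG tumors (range 42.8 to 123), 63.1 in non-responders (range 30.2 to 88.9), and 25.7 in responders (range 11.7 to 39.3). For Ifngr2 the medians were 47, 36.9, and 12.4 in the same order.

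**Figure D1:**
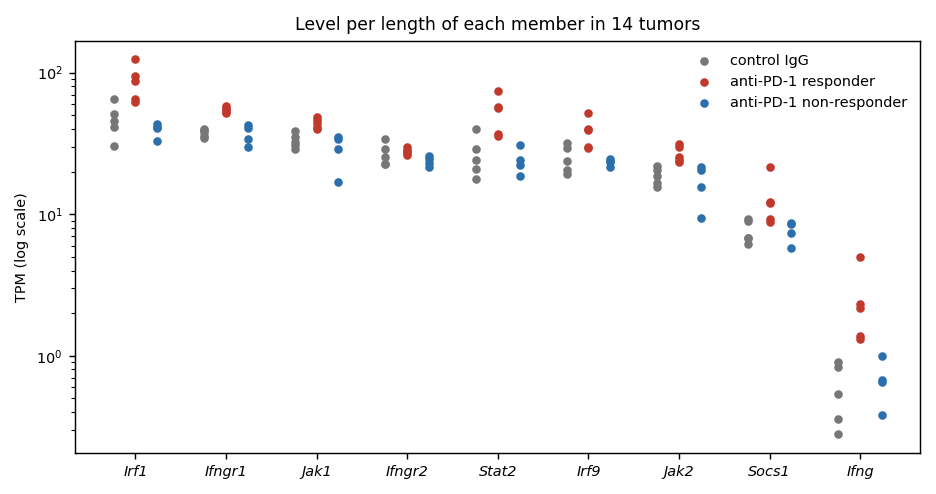
TPM (log scale) of each member in the 14 tumors, with 1 point per tumor and 1 color per group, and genes ordered by their control IgG mean. Ifng lies apart at the bottom, between 0.28 and 4.96 TPM, and Irf1 reaches 124 TPM in responder 24L.

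Ifng (ENSMUSG00000055170, chr10:118441046-118445892 in GRCm38, as for the genes that follow, plus strand) was 3.52-fold higher in responders than in non-responders. It was at 2.64, 0.991, 1.77, 1.51, and 1.02 CPM in responders 24L, 26R, 30L, 30R, and 35L. In non-responders 29L, 32R, 33L, and 33R it was at 0.523, 0.324, 0.51, and 0.444 CPM, and in control IgG tumors 14L, 14R, 16R, 17R, and 20R at 0.682, 0.683, 0.289, 0.434, and 0.229 CPM. Every responder lay above every other tumor, with 24L highest, and both tumors of mouse 14 were the highest of the controls. The log2 fold change from non-responders was 1.81 ± 0.38 (SE; edgeR quasi-likelihood test, Benjamini-Hochberg adjusted p = 0.0139), and that from control IgG tumors was 1.77 ± 0.35 (adjusted p = 0.00515). Both comparisons use the same 5 responders. Without both tumors of mouse 30 or of mouse 33, the first was 1.78 ± 0.44 and 1.91 ± 0.53 and no longer passed (adjusted p = 0.0657 and 0.0967).

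Of the 9 members, 5 rose in responders against non-responders (Ifng, Ifngr1, Jak1, Stat2, and Irf1) and 0 fell, where 5.08% of all genes tested were called higher and 4.82% lower by the same edgeR test. The median log2 fold change of the 9 was 0.46, against 0.006 over all genes. In 6 of 9 (these and Jak2) the responders did not overlap the non-responders, which was so for 12.8% of all genes. Against control IgG tumors 4 of 9 rose (Ifng, Ifngr1, Stat2, and Irf1) and 0 fell, with 7.88% of all genes called higher and 5.30% lower. There the median of the members was 0.48 against -0.011, and 4 of 9 (Ifng, Ifngr1, Jak1, and Jak2) did not overlap, against 15.1% of all genes. Beside the 0 that fell, 0 members fell by DESeq2 or at an unadjusted p under 0.05 in either comparison. The count against non-responders was 3 without 24L, 30R, or 32R. There 569, 686, and 615 of all genes were called, against 1612 with every tumor. The count was 0 without both tumors of mouse 30 or of mouse 33, where 197 and 59 of all genes were still called. The count against control IgG tumors was 2 without 20R, without 24L, or without both tumors of mouse 30. There 1190, 1192, and 922 of all genes were called, against 2147 with every tumor.

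**Figure D2:**
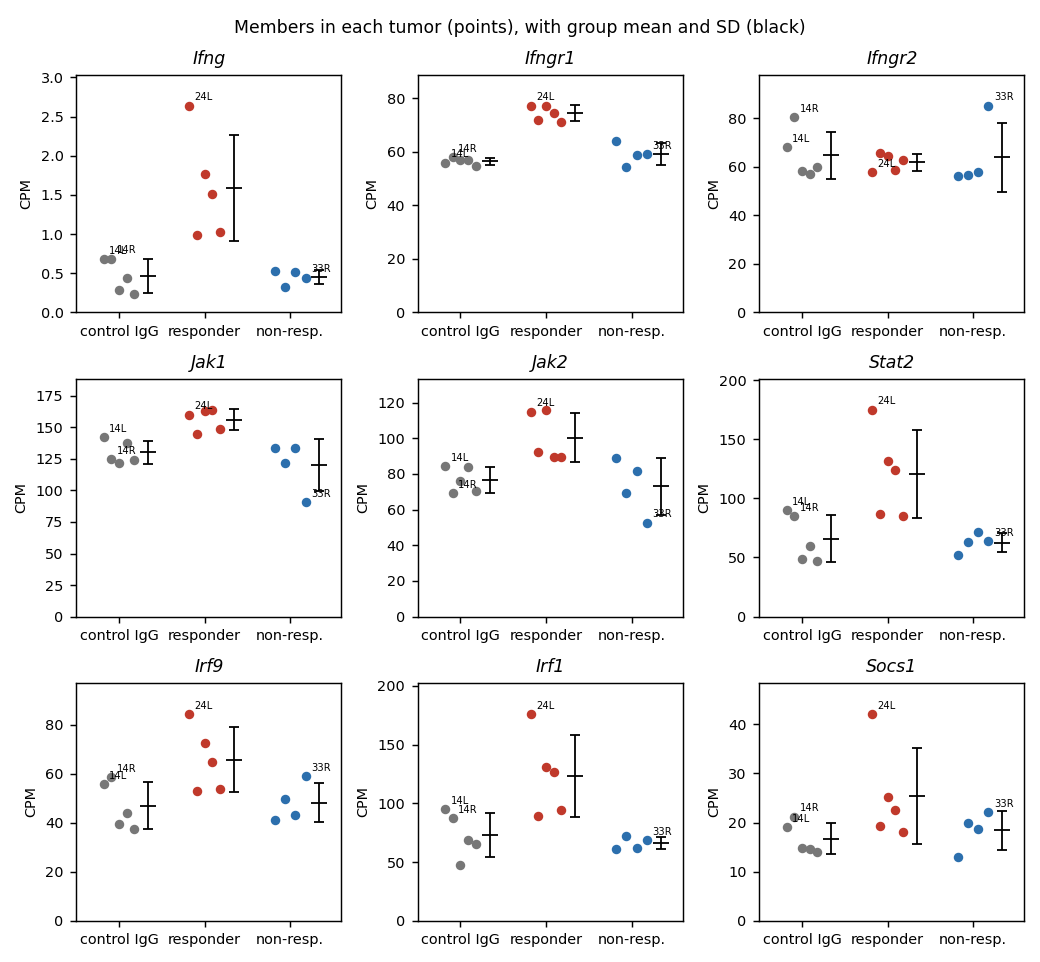
CPM of each member in every tumor (points), with the group mean and SD (black, n = 5, 5, and 4), each axis from 0. Responders lie above the other tumors for Ifng and Ifngr1, 24L is highest for Ifng, Stat2, Irf9, Irf1, and Socs1, and 33R is highest for Ifngr2 and lowest for Jak1 and Jak2.

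Of the receptor chains, Ifngr1 rose in responders and Ifngr2 was not called. Ifngr1 (ENSMUSG00000020009, chr10:19591949-19610229, plus strand) was at 77.2, 71.7, 77.1, 74.6, and 71.1 CPM in responders 24L, 26R, 30L, 30R, and 35L. It was at 64.1, 54.3, 58.9, and 59.1 CPM in non-responders 29L, 32R, 33L, and 33R, and between 54.6 and 57.9 CPM in the 5 control IgG tumors. The responders were above all other tumors, and each group was narrow. The rise was small, with a log2 fold change of 0.33 ± 0.06 from non-responders (edgeR adjusted p = 0.0101) and 0.40 ± 0.06 from control IgG tumors (adjusted p = 0.00115), the latter the smallest adjusted p of any member. The first was 0.31 ± 0.08 without mouse 30 and 0.34 ± 0.07 without mouse 33 (adjusted p = 0.0657 and 0.0705). On log2(TPM + 1), fitted with limma, the 2 differences were larger, at 0.57 ± 0.10 and 0.53 ± 0.09 (adjusted p = 0.00493 and 0.00291).

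Ifngr2 (ENSMUSG00000022965, chr16:91547072-91565623, plus strand) was at 57.7, 65.7, 64.4, 58.7, and 62.9 CPM in responders 24L, 26R, 30L, 30R, and 35L, and at 56.2, 56.8, 57.8, and 85.3 CPM in non-responders 29L, 32R, 33L, and 33R. The control IgG tumors 14L, 14R, 16R, 17R, and 20R were at 68, 80.6, 58.3, 57, and 59.9 CPM, and the 3 groups overlapped. Its log2 fold change was -0.05 ± 0.13 from non-responders (adjusted p = 0.846) and -0.07 ± 0.12 from control IgG tumors (adjusted p = 0.778). The 95% intervals allowed a fold of 0.808 to 1.16 and of 0.807 to 1.13. Without 33R the first was 0.14 ± 0.10, so its sign rested on that library, and without 14R the second was 0.03 ± 0.12.

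The ratio of the chains within a tumor, a test chosen after these values were seen, put the difference between them on 1 scale. Log2 of Ifngr1 over Ifngr2 counts averaged 0.27 ± 0.12 (SD) for responders, -0.09 ± 0.31 for non-responders, and -0.19 ± 0.20 for control IgG. The responders differed from control IgG tumors by 0.45 (adjusted p = 0.0238 over 3 comparisons, two-sided exact permutation; the unadjusted 0.00794 is the lowest possible). The difference from non-responders was 0.36 (p = 0.0238, exact permutation, adjusted p = 0.0357) but 0.21 without 33R (adjusted p = 0.107). It missed the threshold without any 1 of the 8 tumors 24L, 26R, 30L, 30R, 32R, 33L, 33R, and 35L. As a ratio of TPM it was 0.34 and also missed the threshold (exact permutation, adjusted p = 0.0595). The TPM difference from control IgG tumors was 0.46 and passed (exact permutation, adjusted p = 0.0238). With 1 averaged value for each mouse, the difference was 0.39 from control IgG and 0.30 from non-responders. The first then had the smallest p that 4 against 4 mice allow (exact permutation, 0.0286, adjusted p = 0.0857), and the second did not reach the smallest that 4 against 3 mice allow, which is also 0.0286 (exact permutation, adjusted p = 0.214).

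Of the kinases, Jak1 rose against non-responders and Jak2 passed in neither comparison. Jak1 (ENSMUSG00000028530, chr4:101152367-101265282, minus strand) was at 160, 145, 163, 164, and 149 CPM in responders 24L, 26R, 30L, 30R, and 35L, at 134, 122, 134, and 90.8 CPM in non-responders 29L, 32R, 33L, and 33R, and between 122 and 142 CPM in control IgG tumors. The responders lay above both other groups, with 26R close to control 14L at 142 CPM. Its log2 fold change was 0.38 ± 0.10 from non-responders (edgeR adjusted p = 0.0357) and 0.26 ± 0.10 from control IgG tumors (adjusted p = 0.0908). With the gene length trend removed, the first was 0.22 ± 0.07 and missed the threshold (adjusted p = 0.0631). Without 33R it was 0.28 ± 0.07 (adjusted p = 0.0405), and the difference from controls then passed as well (0.27 ± 0.06, adjusted p = 0.00971). The call against non-responders was also lost without 24L, 30L, 30R, or 32R, at an adjusted p of up to 0.0811.

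Jak2 (ENSMUSG00000024789, chr19:29251828-29313080, plus strand) was at 115, 92.5, 116, 89.3, and 89.3 CPM in responders 24L, 26R, 30L, 30R, and 35L, at 88.9, 69.3, 81.8, and 52.6 CPM in non-responders 29L, 32R, 33L, and 33R, and between 69.1 and 84.4 CPM in control IgG tumors. The responders lay above both other groups, but the gap between responder 35L and non-responder 29L was small. Its log2 fold change of 0.46 ± 0.14 from non-responders did not pass (edgeR adjusted p = 0.0533), nor did 0.39 ± 0.13 from control IgG tumors (adjusted p = 0.0646). Without 33R the latter passed (0.39 ± 0.10, adjusted p = 0.0142).

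Of the genes of the ISRE-binding complex, Stat2 rose in both comparisons and Irf9 passed in neither. Stat2 (ENSMUSG00000040033, chr10:128270559-128292849, plus strand), with the ISRE core in its window above, was at 175, 86.7, 132, 124, and 85.4 CPM in responders 24L, 26R, 30L, 30R, and 35L. It was at 52.5, 62.9, 71.3, and 63.8 CPM in non-responders 29L, 32R, 33L, and 33R, and at 89.9, 84.9, 48.6, 59.3, and 47.3 CPM in control IgG tumors 14L, 14R, 16R, 17R, and 20R. Responders 26R and 35L were level with the tumors of control mouse 14. The log2 fold change was 0.95 ± 0.24 from non-responders (edgeR adjusted p = 0.0251) and 0.87 ± 0.22 from control IgG tumors (adjusted p = 0.0188). Without 24L these were 0.77 ± 0.22 (adjusted p = 0.0674) and 0.70 ± 0.21 (adjusted p = 0.0573). The first also missed the threshold without 30R, 32R, or 33R, and the second without 20R (adjusted p = 0.0557).

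Irf9 (ENSMUSG00000002325, chr14:55603571-55610030, plus strand) was at 84.3, 52.9, 72.3, 64.8, and 53.7 CPM in the responders, at 40.9, 49.7, 43.3, and 58.9 CPM in the non-responders, and between 37.3 and 58.4 CPM in control IgG tumors. Responders 26R and 35L lay within the range of the other groups. Its log2 fold changes of 0.45 ± 0.17 (edgeR adjusted p = 0.105) and 0.48 ± 0.16 (adjusted p = 0.0594) did not pass. The second passed without 14L, 14R, 26R, 33R, or 35L, at an adjusted p as low as 0.0348.

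Irf1 (ENSMUSG00000018899, chr11:53770014-53778374, plus strand), the transcription factor gene with the GAS motif in its first window, was at 176, 89.3, 131, 127, and 94.3 CPM in responders 24L, 26R, 30L, 30R, and 35L. It was at 61, 72.1, 62.2, and 68.6 CPM in the 4 non-responders, and at 94.9, 87.3, 47.2, 69, and 65.7 CPM in control IgG tumors 14L, 14R, 16R, 17R, and 20R. The responders were above all non-responders, and control 14L exceeded responders 26R and 35L. The log2 fold change was 0.91 ± 0.21 from non-responders (edgeR adjusted p = 0.019), which passed with any 1 tumor left out but not without mouse 30 or mouse 33 (adjusted p = 0.0905 and 0.116), and 0.76 ± 0.19 from control IgG tumors (adjusted p = 0.0197). The second missed the threshold without 20R (adjusted p = 0.0565) and without 24L (adjusted p = 0.0584).

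Socs1 (ENSMUSG00000038037, chr16:10782240-10785536, minus strand), the feedback inhibitor, was at 42.1, 19.2, 25.2, 22.6, and 18 CPM in responders 24L, 26R, 30L, 30R, and 35L. It was at 12.9, 20, 18.6, and 22.1 CPM in the non-responders, and between 14 and 21.2 CPM in the control IgG tumors. Responder 24L stood far above the rest, 30L and 30R lay just above both other groups, and 26R and 35L overlapped them. The log2 fold change was 0.47 ± 0.23 from non-responders (edgeR adjusted p = 0.213) and 0.60 ± 0.22 from control IgG tumors (adjusted p = 0.0864), and without 24L it was 0.21 ± 0.18 and 0.34 ± 0.17.

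**Figure D3:**
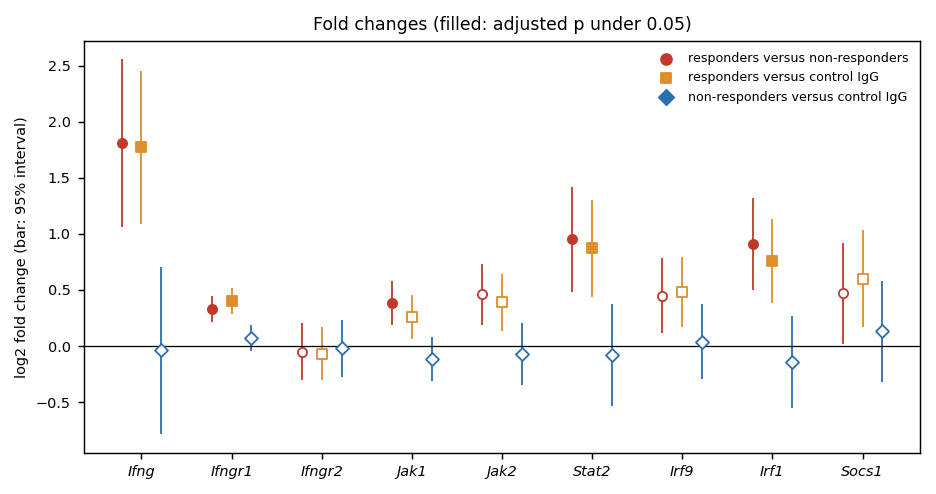
Log2 fold change of each member in the 3 comparisons, with bars of the 95% interval and filled symbols where the edgeR adjusted p is under 0.05. Ifng has the largest change (1.81 and 1.77), Ifngr1 a small one with short bars (0.33 and 0.40), and no symbol of non-responders versus control IgG is filled.

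No member was called between anti-PD-1 tumors without response and control IgG tumors. Non-responders and control IgG tumors overlapped in all 9, against 1.25% of all genes that did not overlap. Of the 9, 0 were called by edgeR or DESeq2, and 0 had an unadjusted p under 0.05. Over all genes 0% were called by edgeR, with 758 at an unadjusted p under 0.05 and 18 called by DESeq2. The log2 fold changes of the members lay between -0.14 ± 0.21 (Irf1) and 0.13 ± 0.23 (Socs1). For Ifng it was -0.04 ± 0.38, whose 95% interval, a fold of 0.577 to 1.63, still allows a change of moderate size, whereas for Ifngr1 it was 0.962 to 1.14.

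Set against its own receptor, kinases, and feedback gene within a tumor, the ligand was relatively more abundant in responders. Log2 of Ifng over Ifngr1 counts averaged -5.63 ± 0.53 for responders (SD, n = 5), -7.02 ± 0.23 for non-responders (n = 4), and -7.02 ± 0.68 for control IgG (n = 5). The ratio of Ifng to each of the other 8 members was higher in all responders than in all tumors of either other group, and each of these 16 differences had the smallest p that a two-sided exact permutation test can give here (0.00794, adjusted p = 0.00934 over 20 ratios). All 16 share Ifng, which by itself was higher in every responder than in every other tumor. They are therefore not 16 independent results. Against non-responders the differences in log2 ratio ran from 0.81 for Stat2 and 0.85 for Irf1 to 1.38 for Ifngr1 and 1.74 for Ifngr2. Against control IgG tumors they ran from 0.91 for Stat2 and 1.02 for Irf1 to 1.52 for Jak1 and 1.84 for Ifngr2, and the difference was 1.23 for Socs1. With TPM in place of counts, the ratios to Ifngr1, Jak1, Jak2, Stat2, and Irf1 missed the threshold against non-responders, at adjusted p of 0.068 to 0.159.

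The ratio of Ifng to T cell transcripts passed against control IgG tumors and not against non-responders. Log2 of Ifng over Cd3e, which encodes a chain of the T cell receptor complex, was -1.68 ± 0.42 in responders. It was -2.13 ± 0.43 in non-responders, and the difference of 0.45 did not pass (exact permutation test, p = 0.198, adjusted p = 0.198). For Cd8a, a chain of the coreceptor of cytotoxic T cells, the difference was 0.55 (p = 0.127, exact permutation, adjusted p = 0.134). Against control IgG tumors, where log2 of Ifng over Cd3e was -2.60 ± 0.27, the differences were 0.92 for Cd3e (exact permutation, adjusted p = 0.00934) and 0.89 for Cd8a (exact permutation, adjusted p = 0.0176). Both control IgG and non-responder values are set against the same responders, and whether the comparisons differ was not tested.

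Within groups, tumors with more Ifng had more Stat2, Irf9, Irf1, and Socs1. Because the responders formed a separate cluster of Ifng values, r was computed over the 14 tumors after each group mean was subtracted, with permutation within groups and adjustment over 8 genes. It was 0.91 for Stat2 (rho 0.88, adjusted permutation p = 0.00632 for r and 0.0146 for rho), 0.81 for Irf1 (rho 0.74, adjusted p = 0.0121 and 0.0327), and 0.79 for Irf9 (rho 0.80, adjusted p = 0.0121 and 0.0234). For Socs1 it was 0.68 (rho 0.62, adjusted p = 0.0192 and 0.0393) and for Ifngr1 0.62 (rho 0.68, adjusted p = 0.0121 and 0.0315). Without 20R and 24L, the tumors farthest from the median, r was 0.86 for Stat2, 0.81 for Irf1, 0.69 for Irf9, 0.54 for Socs1, and 0.56 for Ifngr1.

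For the kinases and the second receptor chain r did not pass. It was 0.44 for Jak2 (rho 0.54, adjusted permutation p = 0.102 for r and 0.0521 for rho), 0.35 for Jak1 (rho 0.56, adjusted p = 0.121 and 0.0393), and 0.22 for Ifngr2 (rho 0.10, adjusted p = 0.433 and 0.727). Without 20R and 24L it was 0.33, 0.35, and 0.30. Jak1 and Jak2 varied together (r = 0.86) and opposite to Ifngr2 (-0.69 and -0.63), and 33R was an extreme tumor for all 3. On log2(TPM + 1), r with Ifng was 0.21 for Ifngr1, and it passed for Irf9 (0.87), Socs1 (0.85), Stat2 (0.73), and Irf1 (0.73). Within the 9 control IgG and non-responder tumors alone, group means were not subtracted and permutation ran across both groups. There r passed for Stat2 (0.84, adjusted permutation p = 0.0473) and for no other member. The rho of Stat2, 0.80, did not pass (adjusted permutation p = 0.11). With the tumors of a mouse averaged, r passed for Jak2 (0.65, adjusted permutation p = 0.0447) and missed the threshold for Socs1 (0.68, adjusted p = 0.0513), while 0 of 8 members passed by rho, at adjusted permutation p from 0.057 (Ifngr1 and Jak2) to 0.47 (Ifngr2).

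**Figure D4:**
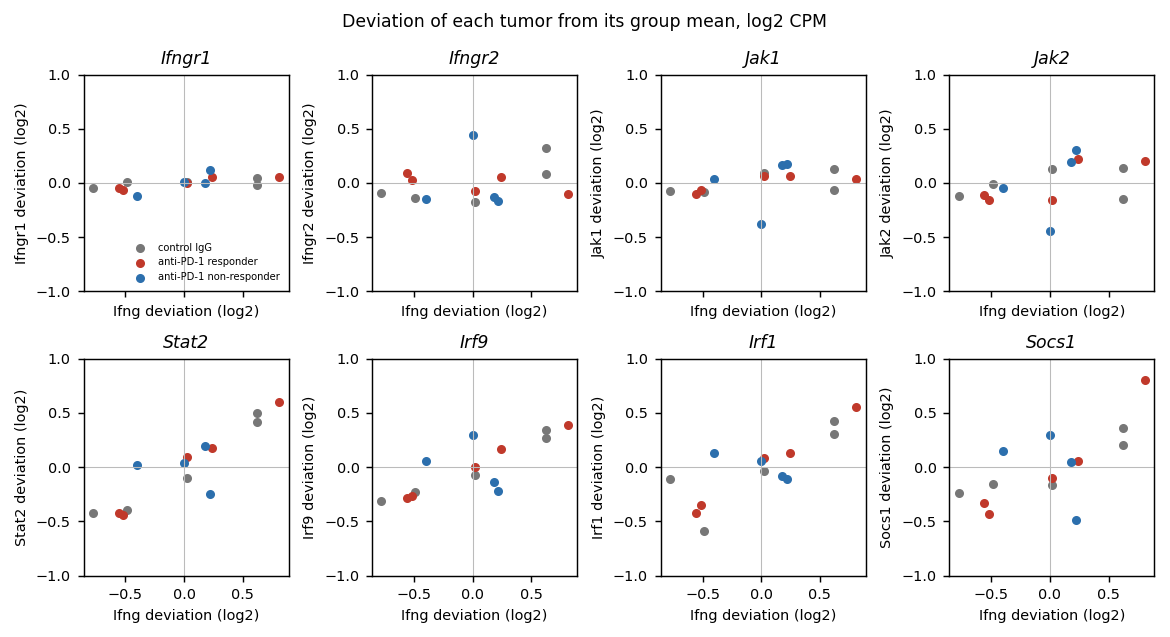
Deviation of each tumor from its group mean in log2 CPM, Ifng on the horizontal axis and each other member on the vertical axis, colored by group. Over all tumors together, though not among the non-responders alone, Stat2, Irf9, Irf1, and Socs1 climb with Ifng (r = 0.91, 0.79, 0.81, and 0.68). Ifngr1 spans a narrow range, and r is 0.22 for Ifngr2.

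For Ifng, the 2 tumors of each mouse ranked next to each other in their group, which is common by chance among 4 or 5 tumors. Over all genes, the correlation between tumors of a mouse that limma estimated was -0.282. Ifng was at 0.682 and 0.683 CPM in 14L and 14R, at 1.77 and 1.51 CPM in 30L and 30R, and at 0.51 and 0.444 CPM in 33L and 33R. In mouse 14 both tumors were the top 2 of 5 controls for Ifng, Ifngr2, Stat2, Irf9, Irf1, and Socs1. In mouse 33 other members differed, and 33R had 1.48 times the Ifngr2 and 0.643 times the Jak2 of 33L.

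The genes most alike in pattern were taken from 12181 genes with a mean log2 CPM of at least 1, by Pearson's r over the 14 tumors, as a description with no test. Group means were not subtracted here. These r thus include any difference between the groups and cannot be set beside the r within groups above. For Ifng they were Dram1 (0.988), Gbp8 (0.980), and Il18bp (0.979). For Irf1 they were Igtp (0.983), Irgm2 (0.979), and Irgm1 (0.977), all interferon-inducible GTPase genes, and for Stat2 they were H2-T24 (0.987), C2 (0.982), and Gm4951 (0.980). Irf9 was followed by Ifi47 (0.973), Zbp1 (0.972), and Ifi44l (0.971), and Socs1 by Abi3 (0.953), Dhx58 (0.944), and Irf8 (0.944). For Ifngr1 the list was Kcnh1 (0.975), Grk5 (0.964), and Tlr6 (0.963), and for Ifngr2 Cetn2 (0.939), Polb (0.931), and Eif1b (0.929). Jak1 was closest to Map3k4 (0.982), Inpp5d (0.968), and Atp10a (0.966), and Jak2 to Ifi207 (0.955), Ppp2r5a (0.947), and Pgap1 (0.941).

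Upstream of the ligand, several receptor chains for cytokines that induce Ifng rose in responders, though not all. Of 11 genes of Ifng induction 10 were tested, and 4 rose against non-responders with a median log2 fold change of 1.29. These were Il18r1, a receptor chain for IL-18 (1.31 ± 0.22, edgeR adjusted p = 0.00679), Il12rb1 and Il12rb2, the receptor chains for IL-12 (1.27 ± 0.25 and 1.40 ± 0.36, adjusted p = 0.0109 and 0.0284), and Tbx21, the gene of T-bet (1.30 ± 0.30, adjusted p = 0.0203). Against control IgG tumors 5 rose, these and Eomes (0.77 ± 0.22, adjusted p = 0.0315), which was named after its value was seen. The count against non-responders was 2 without 24L, 32R, or 33R, 1 without mouse 30, and 0 without mouse 33. That against control IgG tumors was 3 without 16R, 20R, 24L, 30L, or mouse 30. Il18rap, the other IL-18 receptor chain and the most abundant gene of the list, was also named after its value was seen. It did not rise, at 116 to 133 CPM in responders, 115 to 176 CPM in non-responders, and 122 to 157 CPM in control IgG tumors. The sums of the list, of which Il18rap made up most, overlapped at 156 to 184, 144 to 201, and 150 to 176 CPM in the same order. Il12a had too few counts to test.

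Downstream, genes induced by interferon gamma rose in most cases, and of those of type I interferon 1 passed in 1 comparison. Of 15 interferon gamma targets 11 rose against non-responders (median log2 fold change 1.04) and 12 against control IgG tumors (median 0.75), all 15 with positive values. Those with the smallest p against non-responders were Ido1, a tryptophan-degrading enzyme (2.38 ± 0.40, edgeR adjusted p = 0.00679), Icam1, an adhesion molecule (0.88 ± 0.16, adjusted p = 0.00962), Ciita, the master regulator of MHC class II (2.16 ± 0.41, adjusted p = 0.0102), and Cxcl9, a T cell chemokine (1.38 ± 0.30, adjusted p = 0.015). The count of 11 was 4 without 24L or 33R, 5 without 30L, 6 without 30R or 32R, 1 without mouse 30, and 0 without mouse 33. The count of 12 was 6 without 20R or 24L, 7 without 16R, 17R, or 30L, and 4 without mouse 30. Of 8 type I targets 0 were called against non-responders by edgeR, with 2 at an unadjusted p under 0.05 and 1 called by DESeq2. All 8 were positive with a median of 0.53, and Oas2 (0.74 ± 0.28, adjusted p = 0.1) had the smallest p. Against control IgG tumors all 8 were positive as well, with a median of 0.58, and whether the type I and interferon gamma lists differ was not tested. There Oas2 passed (0.97 ± 0.26, edgeR adjusted p = 0.0242), though not without 16R, 17R, 20R, 24L, or mouse 30.

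Some relatives of the members also rose, and all their calls against non-responders were lost without mouse 30 or mouse 33. Stat5a, which acts below many cytokine receptors, rose against non-responders (0.48 ± 0.12, edgeR adjusted p = 0.0257), as did Stat4, which acts below the IL-12 receptor (1.06 ± 0.28, adjusted p = 0.0294). Both also rose against control IgG tumors (0.41 ± 0.11 and 1.08 ± 0.26, adjusted p = 0.0275 and 0.0137). Against non-responders Stat5a missed the threshold without 30L, 30R, 32R, or 33R, and Stat4 without these, 24L, or 33L. The call of Stat5a against control IgG tumors was lost without 14R, 16R, 20R, 30L, 30R, mouse 14, or mouse 30, and that of Stat4 without mouse 30. Of 7 other IRF genes 1 rose against non-responders, the lymphocyte factor gene Irf4 (1.25 ± 0.28, adjusted p = 0.0175), and 3 against control IgG tumors. The call of Irf4 against non-responders was also lost without 32R, and the count of 3 was 5 without 33R and 1 without mouse 30. Of 5 other receptor chains and Janus kinases tested, 1 rose in each comparison, the kinase gene Tyk2 (0.40 ± 0.12 and 0.43 ± 0.11, adjusted p = 0.0436 and 0.0205), and Ifnar1, a chain of the type I receptor, did not pass (0.24 ± 0.08, adjusted p = 0.0656). Tyk2 missed the threshold against non-responders without any 1 of 11 tumors (all but 14R, 26R, and 29L), and against control IgG tumors without 20R, 24L, 30R, mouse 14, or mouse 30.

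The brakes of the pathway had medians near 0. The median log2 fold change of 7 other SOCS genes was 0.03 in both comparisons. Cish rose against non-responders (0.80 ± 0.22, edgeR adjusted p = 0.038), and 0 passed against control IgG tumors, where 1 had an unadjusted p under 0.05 and DESeq2 called 0. Of 10 phosphatase, PIAS, and other inhibitor genes, Ptpn6, the gene of the phosphatase SHP-1 of blood cells, rose against non-responders (0.58 ± 0.11, adjusted p = 0.0102). Against control IgG tumors Ptpn6 and Ptpn1 rose (0.53 ± 0.10 and 0.36 ± 0.09, adjusted p = 0.00484 and 0.0179), and Ptpn2, named after its value was seen, fell by 0.28 ± 0.08 (adjusted p = 0.0341). Cish missed the threshold without 24L, 29L, 30L, 30R, 32R, 33R, 35L, mouse 30, or mouse 33. Ptpn6 passed with any 1 tumor left out, and against non-responders not without mouse 30 or mouse 33. The calls against control IgG tumors were lost for Ptpn1 without 30R, mouse 14, or mouse 30 and for Ptpn2 without 14R, 17R, 20R, 24L, 26R, 30R, 35L, mouse 14, or mouse 30. Among the 10, the count of 1 against non-responders was 3 without 14R and 4 without 29L, and the count of 3 against control IgG tumors was 5 without 33R or mouse 33.

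**Figure D5:**
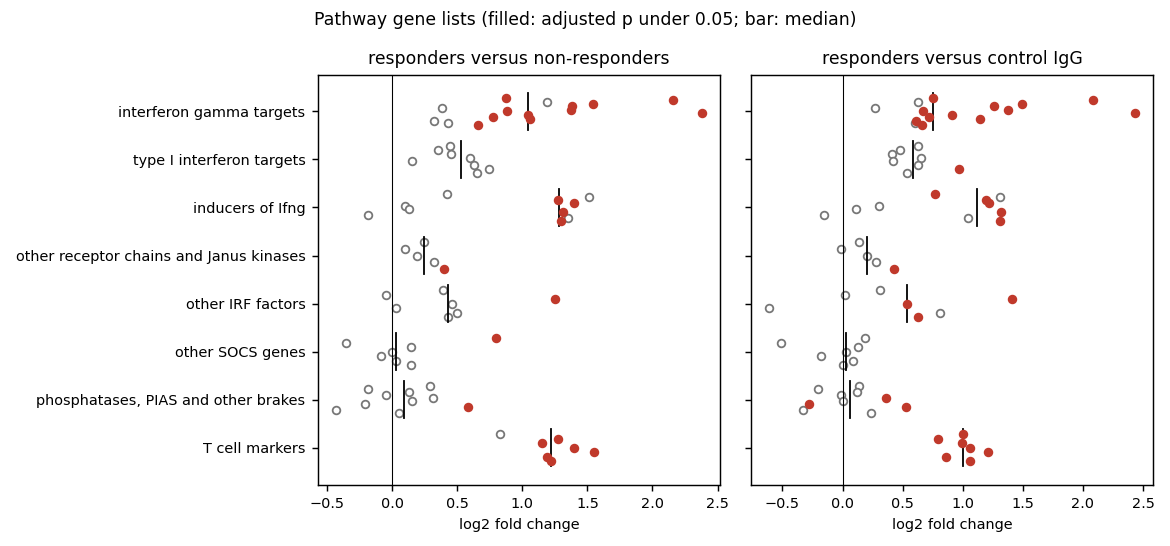
Log2 fold change of each gene tested in 8 lists, responders versus non-responders on the left and responders versus control IgG on the right, filled where the edgeR adjusted p is under 0.05, with a bar at the median of each list. Interferon gamma targets, inducers of Ifng, and T cell markers lie furthest to the right (medians 1.04, 1.29, and 1.22 on the left), and the SOCS and phosphatase lists lie near 0.

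Markers of several cell types moved with the members, and their part in the results was not tested. Of 7 T cell markers, 6 rose against non-responders and 7 against control IgG tumors. Their sum was 37.1 to 74.3 CPM for responders, 20.5 to 26.4 CPM for non-responders, and 16.3 to 39.1 CPM for control IgG. The highest responder in this sum was 24L and the highest control 14L, as for Irf1 and Stat2. The count of 6 was 4 without 24L and 1 without mouse 30 or mouse 33, and the count of 7 was 2 without 20R or 24L, 4 without 16R or 30R, and 3 without mouse 30. Cd4, which marks helper T cells, passed in both comparisons whichever tumor or mouse was left out.

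NK cell markers rose in 4 of 4 tested against control IgG tumors (2 without 16R, 17R, 20R, or 24L), and against non-responders 0 were called by edgeR, 1 by DESeq2, and 2 at an unadjusted p under 0.05. Their sum was 14.2 to 27.8 CPM for responders, 9.59 to 18.3 CPM for non-responders, and 7.46 to 10.5 CPM for control IgG, with Klra8 at no count in any tumor. Dendritic cell markers rose in 3 of 4 in both comparisons, with sums of 17.5 to 25.1 CPM in responders against at most 11.8 and 13.5 CPM in non-responders and control IgG tumors. Without mouse 33 the count against non-responders was 1. Macrophage markers, at 1457 to 1783 CPM in responders, 1167 to 1483 CPM in non-responders, and 1278 to 1479 CPM in control IgG tumors, rose in 1 of 6 (Adgre1) in each comparison. That call was lost against non-responders without mouse 30 or mouse 33, and against control IgG tumors without 14L, 16R, 20R, 24L, 30R, mouse 14, or mouse 30.

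Other lists moved in part, and the genes named from them were chosen after their values were seen. Among 5 fibroblast markers, the collagen gene Col1a2 rose in both comparisons (0.47 ± 0.14 and 0.48 ± 0.13, edgeR adjusted p = 0.0475 and 0.0264), and against control IgG tumors Col1a1 rose (1.06 ± 0.31, adjusted p = 0.0346) and Dcn, the gene of decorin, fell by 0.88 ± 0.18 (adjusted p = 0.00573). Their sum was 2087 to 3333 CPM for responders, 1493 to 2692 CPM for non-responders, and 1721 to 2116 CPM for control IgG. The call of Dcn was kept whichever tumor or mouse was left out, while Col1a2 against non-responders was lost without any 1 of 11 tumors (all but 14R, 26R, and 33L) or any 1 of mice 14, 30, and 33. Without 14R, 20R, 24L, 30R, mouse 14, or mouse 30, 1 of the 3 fibroblast calls against control IgG tumors was left. Of 4 neutrophil markers, Csf3r, the receptor gene for a granulocyte growth factor, rose in both comparisons (0.85 ± 0.18 and 0.94 ± 0.17, edgeR adjusted p = 0.0139 and 0.00305), the first not without mouse 30 or mouse 33. The list as a whole did not rise. Only 2 of 4 had positive values against non-responders and 1 of 4 against control IgG tumors, with medians of -0.30 and -0.52, and 0 were called lower. The neutrophil sum was 19 to 41.4 CPM for responders, 24.4 to 49.3 CPM for non-responders, and 22.5 to 63.5 CPM for control IgG.

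Against control IgG tumors Ms4a1, the gene of the B cell antigen CD20, rose (2.49 ± 0.70, edgeR adjusted p = 0.03) and Cdx2 fell by 1.97 ± 0.55 (adjusted p = 0.0303). Ms4a1 was near the floor, at 0 to 0.192 CPM in control IgG tumors, 0.0283 to 0.158 CPM in non-responders, and 0.174 to 0.713 CPM in responders. It passed the count filter through the responders alone, the group where it is high. The sum of the B cell markers was 2.62 to 4.51 CPM for responders, 1.78 to 3.45 CPM for non-responders, and 1.94 to 2.44 CPM for control IgG. The B cell list had 0 calls without any 1 of 7 tumors or without mouse 30, and Cdx2 missed the threshold without any 1 of 7 tumors or without mouse 14. Erythroid markers fell in 3 of 3 against non-responders and 2 of 3 against control IgG tumors, with sums of 41.6 to 201 CPM for responders, 269 to 1459 CPM for non-responders, and 58.3 to 1382 CPM for control IgG. The erythroid count against non-responders was 0 without 24L, 30L, 30R, 32R, mouse 30, or mouse 33 and 1 without 33R. The count of 2 was 0 without 16R, 17R, 20R, any 1 of the responders except 35L, or mouse 30, and 1 without 14R. Endothelial, keratinocyte, and skeletal muscle markers had 0 calls in either comparison by edgeR, with at most 1 at an unadjusted p under 0.05 and at most 1 by DESeq2.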

How the data were processed

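The data are bulk RNA-seq tables of 14 CT26 tumors, grouped by the response label of each sample. The authors aligned reads with STAR to mm10 and quantified genes with RSEM, as the submitters' processing notes name them. The study's methods name a STAR version for its cell line libraries, and the RSEM version and the annotation release were not given in the sources used here. Per gene, the authors deposited an expected count, an RSEM estimate that is not normalized and divides fragments among genes they match. Per gene they also deposited TPM, in which the estimate is corrected for effective length. The gene and effective lengths deposited with them gave the fragment length, and FPKM values, also deposited, were not used.

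Symbols and gene positions came from a GENCODE annotation of GRCm38, which matched 53620 of 53801 identifiers. Expected counts were rounded and tested with edgeR 4.0.16 in R 4.3.3 (TMM, filterByExpr, quasi-likelihood test, Benjamini-Hochberg over 16287 genes, called at an adjusted p under 0.05), with all 14 tumors in 1 fit and no covariates. A prior count of 2 was added for log2 CPM, and 0.5 for ratios of counts. Two-sided exact permutation tests over tumors compared the ratios (126 splits of 5 against 4 tumors, 252 of 5 against 5), and correlations with 100000 permutations. The pooled correlation over 14 tumors was planned, and is not given because the responders lay apart in Ifng. Tumors served as replicates, 3 pairs of them from 1 mouse each, so p-values measure the spread between tumors. No pair of tumors in a group differed by as little as sampling noise (lowest chi-square per gene 21.2). Intervals of folds are normal 95% intervals from the SE, and a count of 3 in a tumor's total was at most 9.03e-06%.

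The edgeR test was tested on simulated counts of 16086 genes for responders versus non-responders, with 200 genes changed by a log2 fold change of 1.5, of which 87.5% were recovered and 2.78% of calls were false. The changed genes were not among those with the fewest counts, and no tumors shared a mouse. The change of 1.5 is also above that of every member but Ifng, so these rates do not carry over to the members.

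The members, lists, and tests were chosen with earlier results of these data known. Named by rule were the 9 members and the 3 genes most alike each member. Up to 4 genes per list with the smallest p in responders versus non-responders were also named by rule. Further genes, among them Eomes, Il18rap, and Ptpn2, were named after their values were seen. Alternatives were DESeq2 1.42.0, limma 3.58.1 (voom, also with a random effect of mouse, and on TPM with a pseudocount of 1), other size factors and filters, removal of the gene length trend (loess, span 0.5), 1 library per mouse, the compared groups alone, and the omission of each tumor. Omission of both tumors of a mouse and the ratio of the receptor chains were added after the data were seen. Clonal barcodes, ATAC-seq, cell lines, and patient cohorts were not used here. Some results are not reported here.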

Additional observations from a re-analysis of the deposited data

Results flagged for a closer look

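Of 27 groups of member CPM values that were checked for a tumor far from the rest, 1 was flagged, where chance alone flags about 1 in 20. Ifngr2 in non-responder 33R was at 85.3 CPM, against 56.2 to 57.8 CPM in the other 3 non-responders, a gap of 0.943 of the group's range. The same library had the longest mean fragment, 286.8 bases, and the part of that in the Ifngr2 value was not tested. In TPM, 33R was at 24.4 for Ifngr2, within the 21.4 to 25.8 of the group.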

How the results depend on the processing

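Members called in responders versus non-responders numbered 5, and 4 to 7 under 11 other processing choices. With 1 tumor left out they numbered 3 to 6, and without both tumors of mouse 30 or of mouse 33 they numbered 0. Calls over all genes numbered 1612 in the main fit and 569 to 1978 with 1 tumor left out. Without mouse 30 or mouse 33 they numbered 197 and 59. Members called in responders versus control IgG numbered 4, but 7 under DESeq2 and 7 with 1 library per mouse. They numbered 2 to 7 with 1 tumor left out (2 without 20R or 24L, 7 without 33R), 2 without mouse 30, and 7 without mouse 33. Calls over all genes moved the same way in these settings. They numbered 2147 in the main fit, 3012 under DESeq2, and 2856 with 1 library per mouse. Without 20R, 24L, or mouse 30 they numbered 1190, 1192, and 922, and without 33R or mouse 33 they numbered 3385 and 3255. In non-responders versus control IgG the count was 0 under every alternative run. Ifng and Ifngr1 passed in both comparisons under every processing choice that tested them and without any single tumor, and the stricter filter left Ifng untested. The sign of Ifngr2 against non-responders turned with 1 library per mouse (0.01), on TPM (0.23), without 33R (0.14; range -0.11 to 0.14 with 1 tumor left out), and without mouse 33 (0.15). Against control IgG it turned on TPM (0.07), without 14R (0.03; range -0.10 to 0.03), and without mouse 14 (0.09). Jak1 against non-responders missed the threshold with the length trend removed and with the 2 groups alone (adjusted p = 0.0631 and 0.0796, of 0.00591 to 0.0796 over 11 choices), and Jak2 passed under 6 of 11 (0.0159 to 0.103). Of 20 Ifng ratios, which all share Ifng, 18 passed, 13 with TPM, and 18 or 19 with 1 tumor left out. Ifng correlations passed for 5 of 8 genes, and for 1 of 8 in the 9 control IgG and non-responder tumors, where group means were not subtracted. The ratio of Ifngr1 to Ifngr2 in non-responders versus control IgG was 0.09, and -0.004 to 0.24 with 1 tumor left out. The causes were not tested. No paired analysis was possible because the groups share no replicate numbers. Counts limit Ifng, at 10 to 114 per tumor.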
